A study of Mus musculus with 2 samples.

Results

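The arachnoid barrier is the layer of the meninges that seals the cerebrospinal fluid from the tissue outside the brain. Here 10 genes picked as arachnoid genes were followed through cells of the mouse coronal suture. They are the tight junction genes *Cldn11*, *Tjp1*, *Ocln* and *F11r*, the adherens junction gene *Cdh1*, the transporter genes *Abcg2*, *Slc6a13* and *Slc47a1*, and *Ptgds* and *Vtn*, whose proteins are secreted. The genes were chosen by name, with earlier results of these data known. Each of the 10 symbols was found in a single row of the gene lists. These lists held 31053 rows for E15.5 and 27998 rows for E17.5, the embryonic days of the study's stages. Their levels are given in the 15 clusters that the authors assigned to osteogenic and mesenchymal cells, with most attention to MG4, a cluster of 64 of 5335 labelled cells (1.20%) at E15.5 and of 202 of 6830 (2.96%) at E17.5. MG4 is one of 4 clusters named MG for meninges.

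The study used single-cell RNA sequencing of coronal sutures, the joints between the frontal and parietal bones, from wild-type C57/BL6 embryos at E15.5 and E17.5. Each stage has 1 deposited matrix, which is referred to as its library. For E15.5, 10 sutures were pooled, digested with collagenase II and dispase and freed of dead cells with a kit. For E17.5, sutures of 2 litters were digested with collagenase IV in 3 batches, 10 sutures in the first and 3 in each of the others, and each batch was sorted by flow cytometry. Skin, brain and part of the meninges were removed from the skulls of both stages beforehand, so the meningeal cells are those that stayed on the bone. The libraries differ in stage, enzyme, sorting, embryos, sequencing site and counting at once, and the effects of these cannot be told apart.

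Values are counts of unique molecular identifiers (UMIs), which stand for captured RNA molecules, summed over the cells of a group and scaled to the total UMIs of that group (CPM, counts per 1e6 UMIs). The labelled cells held 48607817 UMIs at E15.5, with a median of 8510 per cell, and 92585034 at E17.5, with a median of 12301.5. Since there is 1 matrix per stage, no difference was tested. The intervals in parentheses are exact 95% Poisson intervals for levels, exact Clopper-Pearson intervals for shares and exact conditional intervals for ratios, and they cover counting error only. Where a count is 0, the limit that 3 UMIs would give is stated. Barcodes of the E17.5 matrix carry a suffix from 1 to 3, and the sources used here do not say which suffix is which batch. The study's methods state that the E17.5 batches were made into libraries separately, so values by suffix are given where they differ. The suffixes held 7, 102 and 93 MG4 cells. The clusters were drawn by the authors from the expression of these same cells, so the level of a gene in MG4 is a description of the cluster. Between the libraries, 94 barcodes of cells were shared, none of them in MG4.

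Barrier cells of the arachnoid are joined by tight junctions, in which claudins and occludin span the membranes, junctional adhesion molecules contribute to cell contacts, and zonula occludens proteins tie the complex to the actin cytoskeleton. Beneath them, cadherins of the adherens junctions hold neighbouring cells together. The same cells carry transporters that move solutes and drugs out of or into the fluid, as endothelial cells do at the blood-brain barrier. Arachnoid and pial cells are also known as a source of prostaglandin D synthase in the cerebrospinal fluid.

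All 10 are protein-coding genes, and their positions are from the GENCODE vM21 annotation of GRCm38, the build of the files. *Cldn11* (ENSMUSG00000037625) lies on chromosome 3 from 31149920 to 31164324 on the + strand and has 3 exons. *Vtn* (ENSMUSG00000017344) lies on chromosome 11 from 78499091 to 78502324 on the + strand, and *Slc6a13* (ENSMUSG00000030108) on chromosome 6 from 121300227 to 121337733 on the + strand. *Ptgds* (ENSMUSG00000015090) lies on chromosome 2 from 25466709 to 25470046 on the - strand. *Abcg2* (ENSMUSG00000029802) lies on chromosome 6 from 58584523 to 58695676, *Slc47a1* (ENSMUSG00000010122) on chromosome 11 from 61343401 to 61378345, *Tjp1* (ENSMUSG00000030516) on chromosome 7 from 65296165 to 65527781, *Ocln* (ENSMUSG00000021638) on chromosome 13 from 100496507 to 100552718, *F11r* (ENSMUSG00000038235) on chromosome 1 from 171437535 to 171464603, and *Cdh1* (ENSMUSG00000000303) on chromosome 8 from 106603351 to 106670246. Other annotated genes overlap only *Tjp1*, by 3 genes of which 2 are on its strand, and *Slc6a13*, by 1 microRNA gene on the opposite strand.

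*Cldn11*, *Vtn* and *Slc6a13* had their highest level of any cluster in MG4 in both libraries, with intervals that overlapped those of no other cluster, and have a promoter window outside the annotated gene. Their RefSeq promoter windows (GRCm38.p6) are shown 5′ to 3′ as far as the annotated gene start, so that no annotated transcribed base is included. The letters CCAAT, the letters GGGCGG, the letters TATAAA and the letters TGTTTAC were searched on either strand, and capitals mark the matches.
Cldn11, chr3:31149670-31149919, + strand: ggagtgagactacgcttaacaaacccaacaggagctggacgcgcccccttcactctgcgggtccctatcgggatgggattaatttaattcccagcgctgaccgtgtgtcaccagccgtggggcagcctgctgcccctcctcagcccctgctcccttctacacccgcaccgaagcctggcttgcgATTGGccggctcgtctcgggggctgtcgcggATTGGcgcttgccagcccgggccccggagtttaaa
Vtn, chr11:78498870-78499090, + strand: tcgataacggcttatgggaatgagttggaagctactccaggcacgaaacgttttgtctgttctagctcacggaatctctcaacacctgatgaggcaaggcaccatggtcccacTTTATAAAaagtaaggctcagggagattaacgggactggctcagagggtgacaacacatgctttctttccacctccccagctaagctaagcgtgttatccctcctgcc
Slc6a13, chr6:121300038-121300226, + strand: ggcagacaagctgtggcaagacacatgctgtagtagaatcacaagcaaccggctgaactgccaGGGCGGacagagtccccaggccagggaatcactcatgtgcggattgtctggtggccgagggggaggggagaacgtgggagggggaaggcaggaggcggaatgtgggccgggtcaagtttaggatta

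The *Cldn11* window held CCAAT on the opposite strand from 66 to 62 and from 35 to 31 bases before the RefSeq start. The *Vtn* window held TATAAA on both strands in overlapping positions from 137 to 130 bases before its start, and the *Slc6a13* window, 1 of 3 for this gene, held GGGCGG from 187 to 182 bases before its start and again in the part not shown. In the 250 bases before all 32851 RefSeq starts, 33.8% of windows held CCAAT, 32.7% GGGCGG, 12.4% TATAAA and 3.17% TGTTTAC on either strand. TGTTTAC was in no window of a member. The 3 sequences thus share none of these motifs, and a match is a description of letters only. *Ptgds* has 1 RefSeq window, which lies within the annotated gene and is not shown. *Tjp1*, *Ocln*, *F11r* and *Abcg2* have windows that are not shown, and *Cdh1* and *Slc47a1* were not matched.

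Arachnoid markers were found in MG4, which describes the cluster and does not test its identity. The study had already read *Aldh1a2* and *Tbx18* in these cells as arachnoid markers, and used *Gjb6* as a marker of MG4. Of 6 arachnoid markers, 5 were at least 2-fold above the other labelled cells in each library. Over all genes the share was 8.08% at E15.5, 12.8% at E17.5 and 3.84% in both. The remaining marker, *Dpp4*, was lower in MG4 than in the other labelled cells in both libraries. Its ratios were 0.487 (E15.5) and 0.290 (E17.5). At E15.5, *Gjb6* and *Gjb2* reached 20 UMIs, the minimum used below, only through MG4. Outside MG4 they had 0.0626 and 0.355 CPM, so that their E15.5 calls followed from passing. *Gjb6*, a gap junction gene, had 27.1 CPM in MG4 at E15.5 against 198 CPM at E17.5, and *Aldh1a2*, which makes retinoic acid, had 63.2 and 148 CPM. The dura genes *Gja1*, *Fxyd5* and *Nppc* were called in MG4 as well, in both libraries, as 3 of 4 listed. At E15.5 the 6 endothelial markers summed to 90.3 CPM in MG4, against 16.0 CPM in the other labelled cells and 2940 CPM in endothelial-like cells. At E17.5 the sums were 76.3, 11.3 and 4343 CPM. *Cdh5* made up 55 of the 60 endothelial marker UMIs of MG4 at E15.5 and 115 of the 145 at E17.5, and *Emcn* was at 0 at E15.5. The 5 pericyte markers summed to 37.6 and 52.1 CPM in MG4 and to 99.7 and 83.2 CPM in the other labelled cells. Glia markers summed to 96.3 CPM in MG4 against 114 CPM in the others at E15.5, where 3 of 4 were at 0 in MG4, but to 173 against 23.4 CPM at E17.5, where 2 of 4 were at 0 and glia-like cells had 1578 CPM. Red cell markers summed to 8122 CPM in MG4 against 8997 CPM in the others at E15.5, and to 576 against 458 CPM at E17.5. Chondrocyte markers summed to 468 against 352 CPM at E15.5 and to 108 against 120 CPM at E17.5. The part of these markers' cell types in the levels below was not tested.

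**Figure D1:**
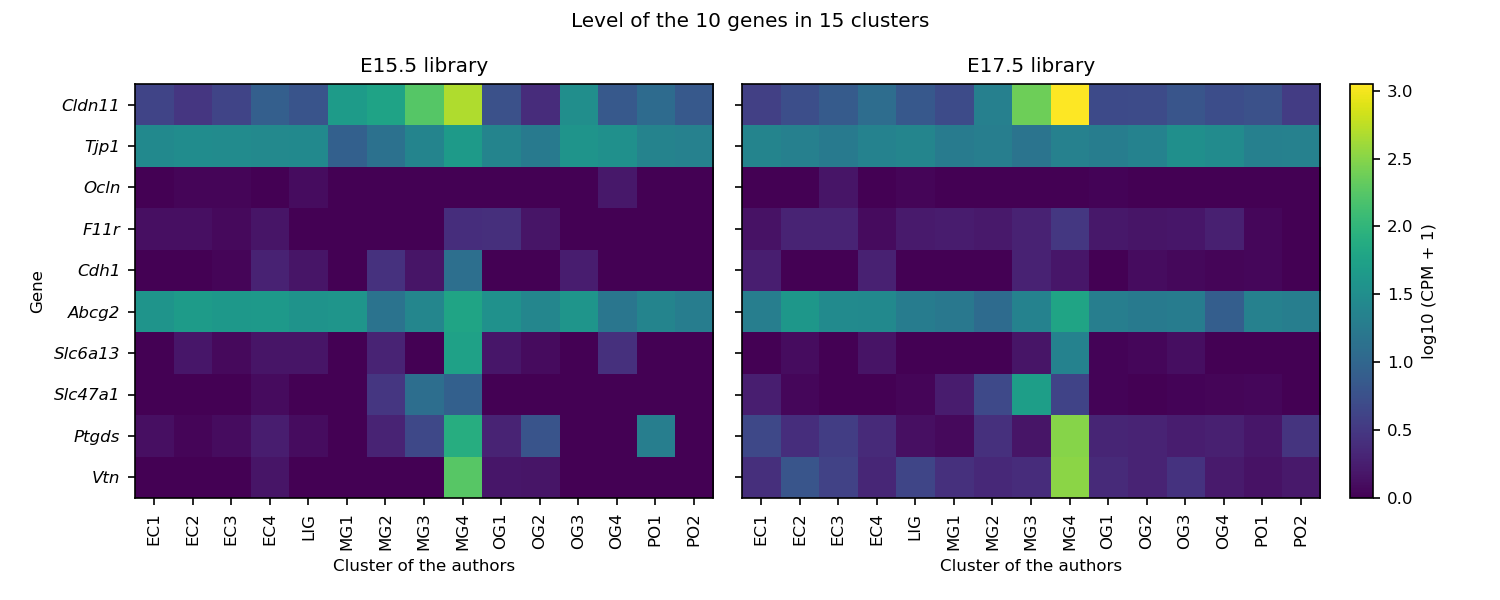
Level of the 10 genes (rows) in the 15 clusters of labelled cells (columns) in the E15.5 library (left) and the E17.5 library (right), as the colour scale log10 (CPM + 1), without error. The MG4 column is the brightest for *Cldn11*, *Slc6a13*, *Ptgds* and *Vtn* in both libraries, *Slc47a1* is brightest in MG3, and *Tjp1* and *Abcg2* are visible in every cluster.

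*Cldn11*, the claudin of arachnoid, myelin and Sertoli cell tight junctions, was the member with the widest detection in MG4. Its level was 479 CPM in MG4 at E15.5 (427 to 534), from 318 UMIs, and 1120 CPM at E17.5 (1073 to 1169), from 2127 UMIs. The other labelled cells had 15.3 CPM (14.2 to 16.4) and 11 CPM (10.3 to 11.7), so that MG4 was 31.3-fold (27.4 to 35.8) and 102-fold (94.3 to 110) above them. MG4 was followed by MG3, with 173 CPM (156 to 193) and 239 CPM (218 to 261), and then by MG2, with 58.3 CPM (49.9 to 67.6) and 20.2 CPM (16.4 to 24.7). The intervals of MG4, MG3 and MG2 did not overlap in either library. At E15.5 the interval of MG1, with 45.8 CPM (23.7 to 80.0), overlapped that of MG2 above it and that of OG3 below it, with 30.9 CPM (22.1 to 42.1). The remaining clusters were at or below 10.8 CPM at E15.5 and 11.4 CPM at E17.5.

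At E15.5, 55 of 64 MG4 cells held at least 1 UMI of *Cldn11* (85.9%, 75.0 to 93.4), and at E17.5, 191 of 202 did (94.6%, 90.5 to 97.3). In myeloid-like cells, of like depth, the share was 3.66% at E15.5 and 4.21% at E17.5. Their median depths were 9739 and 9619 UMIs, and those of MG4 were 9400 and 8905. An MG4 cell held a median of 3 UMIs and at most 20 at E15.5, and a median of 9 and at most 47 at E17.5. After thinning each cell to 3000 UMIs, 67.7% of 62 MG4 cells and 84.7% of 202 held a UMI, against 3.13% and 2.64% of the other labelled cells. The 3 barcode suffixes at E17.5 gave 994 CPM (784 to 1242), 1143 CPM (1076 to 1214) and 1106 CPM (1038 to 1178) in MG4, with overlapping intervals. Of the *Cldn11* UMIs of labelled cells, MG4 held 30.3% at E15.5 against 68.1% at E17.5.

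*Tjp1* did not follow *Cldn11*, and *Ocln* and *F11r* had too few UMIs in MG4 to tell. *Tjp1*, which encodes the scaffold protein ZO-1, was found in every cluster, from 7.64 CPM in MG1 to 45.1 CPM in MG4 at E15.5 and from 13.7 CPM in MG3 to 32.1 CPM in OG3 at E17.5. MG4 had 45.1 CPM (30.5 to 64.4) at E15.5, from 30 UMIs, 1.75-fold (1.17 to 2.51) the 25.8 CPM of the other labelled cells. Its level at E17.5 was 21.1 CPM (15.05 to 28.7), from 40 UMIs, 0.924-fold (0.658 to 1.26) the 22.8 CPM of the others. Of the 30 UMIs at E15.5, 8 came from 4 cells described below, and without these cells the ratio was 1.38.

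*Ocln*, which encodes occludin, had 0 UMIs in 64 and 202 MG4 cells, which allows a level of up to 4.51 CPM at E15.5 and 1.58 CPM at E17.5. All other labelled cells together held 4 and 3 UMIs of it. *F11r*, which encodes junctional adhesion molecule A, had 1 UMI in MG4 at E15.5 and 4 at E17.5. The latter gave 2.11 CPM (0.574 to 5.39), and its interval overlapped that of EC3, the next cluster, with 1.02 CPM. The ratio of *F11r* in MG4 to the other labelled cells was 5.55 (0.131 to 36.9) at E15.5 and 3.47 (0.914 to 9.41) at E17.5. Both intervals include 1. The depth did not allow the *Ocln* level of MG4 to be told from that of the other labelled cells, 0.0834 CPM at E15.5 and 0.0331 CPM at E17.5.

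*Cdh1*, which encodes E-cadherin of the adherens junction, was a low signal of MG4 in the E15.5 library. It had 8 UMIs in 6 of 64 MG4 cells, or 12 CPM (5.2 to 23.7), and 14 UMIs, or 0.292 CPM, in 5271 other labelled cells, a ratio of 41.2 (15 to 105). The interval did not overlap that of MG2, the next cluster, with 1.68 CPM (0.547 to 3.93). The intervals of MG1 and PO2, with 0 UMIs and upper limits of 14.1 and 7.62 CPM, did overlap it. At E17.5 *Cdh1* had 1 UMI in 202 MG4 cells, 0.527 CPM (0.0133 to 2.93), below MG3 with 2 UMIs and 0.980 CPM. Epithelial markers were near 0 in MG4, with 4 of 6 at 0 and a summed level of 3.01 CPM at E15.5.

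The 3 transporter genes had 3 patterns. *Abcg2*, an efflux pump of drugs and urate, was found in every cluster. Its level in MG4 was nearly equal at the stages, with 40 UMIs or 60.2 CPM (43.0 to 82.0) at E15.5 and 113 UMIs or 59.5 CPM (49.0 to 71.5) at E17.5. Both were the highest level of any cluster. At E15.5 the interval overlapped that of EC2 with 46.0 CPM (41.8 to 50.6), and at E17.5 it did not, with EC2 at 40.1 CPM (35.8 to 44.8). The other labelled cells had 35.6 and 19.2 CPM, and the ratio of MG4 to them was 1.69 (1.20 to 2.31) and 3.09 (2.53 to 3.74). A UMI was found in 43.8% and 38.1% of MG4 cells, against 20.5% and 15.4% of myeloid-like cells. In the 7 MG4 cells of suffix 1 the ratio was 0.620, and in suffixes 2 and 3 it was 2.95 and 3.57.

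*Slc47a1*, which encodes an exporter of organic cations, was higher in MG3 than in MG4, with intervals that overlapped at E15.5 but not at E17.5. At E15.5 the 23 UMIs of MG3 gave 11.7 CPM (7.42 to 17.6) and lay in 20 of 200 cells. At E17.5 its 102 UMIs gave 49.98 CPM (40.8 to 60.7) and lay in 63 of 165 cells. MG4 had 7.52 CPM (2.44 to 17.6) and 3.16 CPM (1.16 to 6.88), from 5 and 6 UMIs. The MG4 level was 0.643-fold (0.191 to 1.73) and 0.0632-fold (0.0227 to 0.142) that of MG3. It was still above the other labelled cells as a whole, 12-fold (3.64 to 31.3) at E15.5 and 2.17-fold (0.782 to 4.85) at E17.5.

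*Slc6a13*, which encodes the GABA and taurine transporter GAT2, was the transporter with the largest ratio. At E15.5 the 36 UMIs of MG4 gave 54.2 CPM (37.9 to 75.0), and at E17.5 its 41 UMIs gave 21.6 CPM (15.49 to 29.3). The other labelled cells had 0.396 and 0.121 CPM, and the ratios were 137 (76.4 to 252) and 178 (89.8 to 384). No other cluster had more than 1.66 CPM at E15.5 or 0.490 CPM at E17.5. The UMIs came from 6 of 64 and 4 of 202 MG4 cells.

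*Vtn*, which encodes the matrix and plasma protein vitronectin, had 119 UMIs in MG4 at E15.5, or 179 CPM (148 to 214), and 628 UMIs at E17.5, or 331 CPM (305 to 358). The other labelled cells held 5 and 165 UMIs, or 0.104 and 1.82 CPM. Of the *Vtn* UMIs of labelled cells, MG4 held 96.0% at E15.5 against 79.2% at E17.5. The cluster with the next level, EC2 at E17.5, had 5.41 CPM (3.91 to 7.29). At E15.5 the UMIs lay in 7 of 64 MG4 cells (10.9%, 4.51 to 21.2), and at E17.5 in 96 of 202 (47.5%, 40.5 to 54.7). Myeloid-like cells held a UMI in 0 of 273 cells at E15.5 and in 2.40% at E17.5.

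*Ptgds*, which encodes the lipocalin-type prostaglandin D synthase, had 52 UMIs in MG4 at E15.5, or 78.3 CPM (58.4 to 103), and 587 UMIs at E17.5, or 309 CPM (285 to 335). The other labelled cells had 1.69 and 1.01 CPM, a ratio of 46.3 (32.0 to 66.4) and 305 (244 to 384). Next came PO1 with 19.1 CPM (13.6 to 26.1) at E15.5 and EC1 with 3.56 CPM (1.63 to 6.76) at E17.5. The UMIs came from 4 of 64 and 4 of 202 MG4 cells. The plot of UMIs per MG4 cell shows how few cells carry *Ptgds* and *Slc6a13*.

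**Figure D2:**
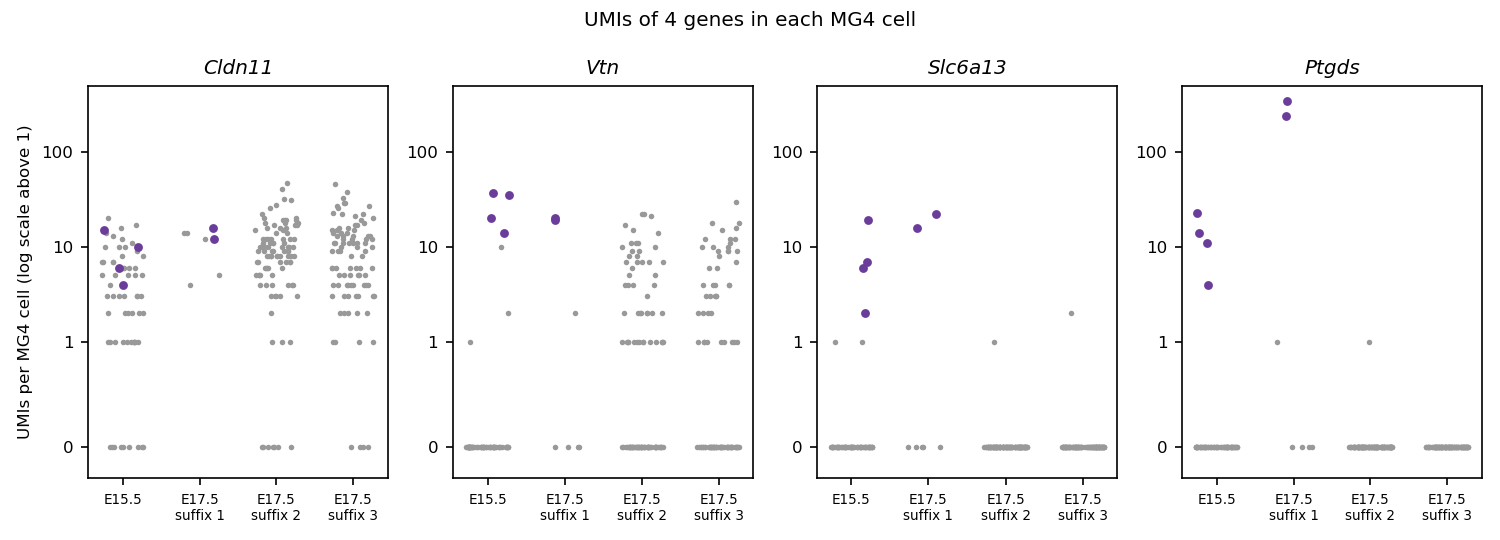
UMIs of *Cldn11*, *Vtn*, *Slc6a13* and *Ptgds* (y axis, log scale above 1) in each of 64 MG4 cells at E15.5 and 7, 102 and 93 MG4 cells of barcode suffixes 1, 2 and 3 at E17.5 (x axis, points spread sideways). Larger violet points are cells with UMIs of both *Ptgds* and *Slc6a13*, of which E15.5 has 4 and E17.5 has 2, and grey points are the other MG4 cells.

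*Ptgds* and *Slc6a13* were carried by the same few cells. At E15.5, 4 of 64 MG4 cells held UMIs of both genes. At E17.5, 2 of 202 did, and both were among the 7 MG4 cells of suffix 1. They were singled out after the values were seen and are described without a test. At E15.5 the 4 cells held 11, 4, 23 and 14 UMIs of *Ptgds* and 19, 6, 7 and 2 UMIs of *Slc6a13*, in the same order. They held 35, 37, 20 and 14 UMIs of *Vtn* and 10, 4, 15 and 6 of *Cldn11*. At E17.5 the 2 cells held 239 and 346 UMIs of *Ptgds*, 22 and 16 of *Slc6a13*, 19 and 20 of *Vtn* and 12 and 16 of *Cldn11*. The depths of the former were 15940, 12358, 10343 and 6410 UMIs and those of the latter 5424 and 12453 UMIs, on both sides of the median of MG4.

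Without these cells, MG4 held 0 UMIs of *Ptgds* in 60 cells at E15.5 and 2 UMIs in 200 cells at E17.5, where the level was 1.06 CPM, 1.05-fold that of the other labelled cells. *Slc6a13* fell to 2 UMIs (3.23 CPM) and 3 UMIs (1.59 CPM). *Vtn* had 13 UMIs in 3 of the 60 cells at E15.5, 21.0 CPM (11.2 to 35.9), but 589 UMIs in 94 of the 200 cells at E17.5, 313 CPM (288 to 339). *Cldn11* changed little, with 457 CPM (405 to 513) and 1116 CPM without them. All 6 MG4 cells with *Slc6a13* at E15.5 and all 4 at E17.5 held *Vtn*, as did 4 of 4 and 3 of 4 cells with *Ptgds*. *Vtn* in suffixes 2 and 3 was 319 CPM (284 to 358) and 325 CPM (289 to 365), while *Ptgds* had 1 and 0 UMIs there in 102 and 93 cells.

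Other transporters marked the same cells. *Slc22a6*, which encodes the organic anion transporter OAT1, had 28 UMIs in the 4 cells and 7 UMIs, in 1 cell, in the other 60 MG4 cells at E15.5. At E17.5 it had 22 UMIs in the 2 cells and 0 in the other 200. *Slc13a4*, a sulfate transporter gene, had 5 UMIs in 2 of 4 cells and 18 UMIs in 2 of 2, against 2 UMIs in 60 and 7 in 200. *Slc4a10* and *Slc16a9*, a bicarbonate transporter gene and a monocarboxylate carrier gene, had 0 UMIs in these cells. The other 60 cells of E15.5 held 24 and 60 UMIs of them, and the other 200 cells of E17.5 held 175 and 276. With so few cells, a count of 0 allows up to 66.6 CPM at E15.5 and 168 CPM at E17.5. In the other MG4 cells at E17.5, *Slc4a10* had 93.0 CPM (79.7 to 108) and *Slc16a9* 147 CPM (130 to 165), both below that limit. At E15.5 MG4 as a whole had 36.1 CPM of *Slc4a10*, below the limit, and 90.3 CPM of *Slc16a9*, above it. Only for *Slc16a9* at E15.5 did the limit thus lie below the level of MG4. That level is taken without its counting error, in cells picked after the values were seen, and the difference was not tested. The arachnoid marker *Aldh1a2* was found in 3 of 4 and 2 of 2 of the cells, with 355 CPM (203 to 577) and 615 CPM (307 to 1101), against 42.0 CPM (27.4 to 61.5) and 144 CPM (127 to 162) in the other MG4 cells. The endothelial markers summed to 155 and 168 CPM in them, from 7 and 3 UMIs, with 3 and 5 of 6 at 0. The 5 pericyte markers were at 0, which at this depth cannot be told from their level in MG4 as a whole.

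Outside MG4, 2 unlabelled cells of E15.5 and 1 of E17.5 had UMIs of both *Ptgds* and *Slc6a13*, and no cell of the other 14 clusters did. Of the *Ptgds* UMIs of labelled cells, MG4 held 39.1% at E15.5 against 86.5% at E17.5, and of the *Slc6a13* UMIs 65.5% against 78.8%.

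Read by a fixed limit, 5 of the 10 genes were at least 2-fold above the other labelled cells in MG4 in both libraries with at least 20 UMIs over the labelled cells of each. They are *Cldn11*, *Slc6a13*, *Slc47a1*, *Ptgds* and *Vtn*, of 7 members that passed this minimum. *Abcg2* passed the limit at E17.5 and *Tjp1* in neither library. *Ocln*, *F11r* and *Cdh1* did not pass the minimum. The minimum counts the UMIs of MG4 too, and *Vtn* at E15.5 and *Slc6a13* in both libraries passed it only through MG4, with 5, 19 and 11 UMIs in the other labelled cells, so that their calls followed from passing. With *F11r* and *Cdh1* counted by their ratio alone, on 1 to 8 UMIs, the numbers are 7 at E15.5, 8 at E17.5 and 7 in both. Among 13086 genes with at least 20 UMIs in each library, 8.08% were called at E15.5, 12.8% at E17.5 and 3.84% in both. The median ratio was 21.7 and 3.44 over the 10 members, and 0.926 and 1.06 over all genes tested. The 10 members include *Ocln*, *F11r* and *Cdh1*, which did not pass the minimum, whereas all genes tested did. The E17.5 median of the members lies between *F11r* and *Cdh1*, on 4 and 1 UMIs. The genes had been picked as arachnoid genes and MG4 carries arachnoid markers, so these counts describe the choice as much as the cluster.

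**Figure D3:**
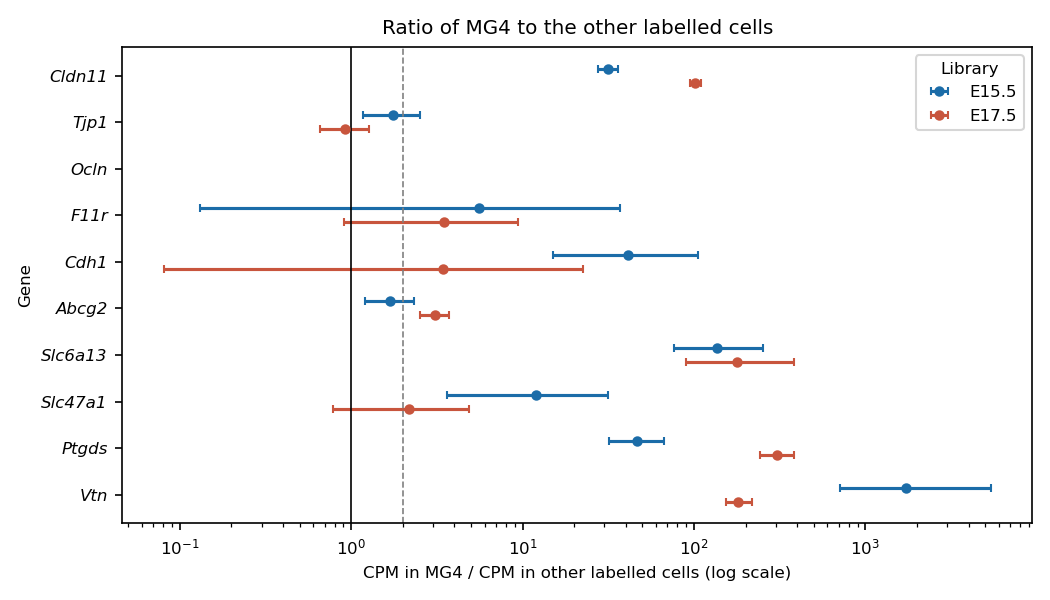
Ratio of the CPM in MG4 to the CPM in the other labelled cells (x axis, log scale) for the 10 genes (y axis), with exact conditional 95% intervals as bars, in the E15.5 library (blue) and the E17.5 library (red). The solid line marks a ratio of 1 and the dashed line the limit of 2. *Ocln* has no point because MG4 held 0 UMIs, and the points of *F11r* in both libraries and *Cdh1* at E17.5 rest on 1 to 4 UMIs.

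Between the stages, *Cldn11* in MG4 was 2.34-fold (2.08 to 2.64) higher at E17.5 than at E15.5, and *Ptgds* was 3.95-fold (2.97 to 5.35) higher, where 2 cells of suffix 1 held all but 2 of the 587 UMIs of E17.5. *Vtn* was 1.85-fold (1.52 to 2.27) higher in MG4 as a whole and 14.9-fold higher without the cells that held *Ptgds* and *Slc6a13*. The latter ratio is given without an interval. Those cells were picked after the values were seen and held most of the *Vtn* UMIs of MG4 at E15.5. *Abcg2* had a ratio of 0.988 (0.684 to 1.46). *Tjp1*, *Slc6a13* and *Slc47a1* had ratios of 0.467 (0.283 to 0.776), 0.398 (0.248 to 0.642) and 0.420 (0.107 to 1.74). *Cdh1* had 0.0437 (0.000986 to 0.326), from 8 and 1 UMIs. In MG4, 2 of 10 members were thus at least 2-fold higher and 4 at least 2-fold lower, against 13.7% and 7.43% of all genes tested. *Cdh1*, 1 of the 4, had not passed the minimum, and the 4 became 2 with a mean over cells, without cells of high Scrublet doublet score or without the cells with *Ptgds* and *Slc6a13*. In suffixes 1, 2 and 3 taken singly, the ratio of *Cldn11* to E15.5 was 2.08, 2.39 and 2.31. That of *Ptgds* was above 1 in suffix 1 only and 0.0137 in suffix 2, from 1 UMI.

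Few MG4 cells held several members at the same depth. After thinning to 3000 UMIs, an MG4 cell held a median of 1 of the 10 genes in both libraries, and the other labelled cells a median of 0. At least 4 members were held by 4 of 62 MG4 cells (6.45%) in the E15.5 library and by 3 of 202 (1.49%) in the E17.5 library, against 0 of 5113 and 0 of 6628 other labelled cells. Without thinning, 8 of 64 and 14 of 202 MG4 cells and 1 of 5271 and 6 of 6628 other labelled cells held at least 4. Among endothelial-like cells without a label, 5 of 46 did at E15.5, and 11 of 24 and 9 of 95 in the clusters of E17.5. After thinning these counts were 0 of 33, 2 of 24 and 1 of 95, so holding several members was not particular to MG4. At E17.5 a UMI of *Vtn* was found in 37.4% of thinned MG4 cells with *Cldn11* and in 16.1% of those without it, and in 38.7% of those with *Abcg2* and 33.3% of those without.

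Cells without a label showed where else the genes were found. They were clustered here and named from fixed markers, as cells "like" a type. *F11r*, nearly missing from MG4, had 65.4 CPM (45.6 to 91.0) in 46 endothelial-like cells at E15.5 and 310 CPM (283 to 339) in 119 at E17.5. *Tjp1* had 146 CPM (115 to 182) and 114 CPM (97.5 to 132) in them, and *Abcg2* 163 CPM (130 to 201) and 215 CPM (193 to 239). *Ocln* had 5.61 CPM (1.16 to 16.4), from 3 UMIs, and 14.8 CPM (9.36 to 22.2), from 23 UMIs. Each of these 4 genes was thus higher in endothelial-like cells than in MG4 in both libraries, with intervals that did not overlap except for *Ocln* at E15.5. *Cldn11* went the other way, with 20.6 CPM (10.3 to 36.8) and 58.4 CPM (47.0 to 71.7) in endothelial-like cells.

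*Vtn* was found in pericyte-like cells, with 21.1 CPM (15.54 to 27.9) at E15.5 against 219 CPM (200 to 239) at E17.5, and in 95 photoreceptor-like or pineal cells at E17.5, with 50.9 CPM (40.3 to 63.4). *Slc6a13* had 86 UMIs in mast-like cells at E15.5, or 39.9 CPM (31.9 to 49.3), and 6 UMIs at E17.5, or 25.5 CPM (9.36 to 55.5), levels whose intervals overlap those of MG4. *Ptgds* had 18.7 CPM (16.0 to 21.7) and 30.3 CPM (24.6 to 37.0) in chondrocyte-like cells. *Cldn11* reached 227 CPM (203 to 253) in an unnamed cluster of 188 cells at E15.5 that was led by *Prg4*, *Tac1* and *Lsr*, and was itself among the 10 leading genes of that cluster. It had 136 CPM (119 to 155) in 198 chondrocyte-like cells at E17.5 led by *Clu* and *Prg4*. Over all cells, labelled or not, MG4 held 14.4% of the *Cldn11* UMIs at E15.5 against 55.9% at E17.5, and 67.6% of the *Vtn* UMIs against 43.6%.

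**Figure D4:**
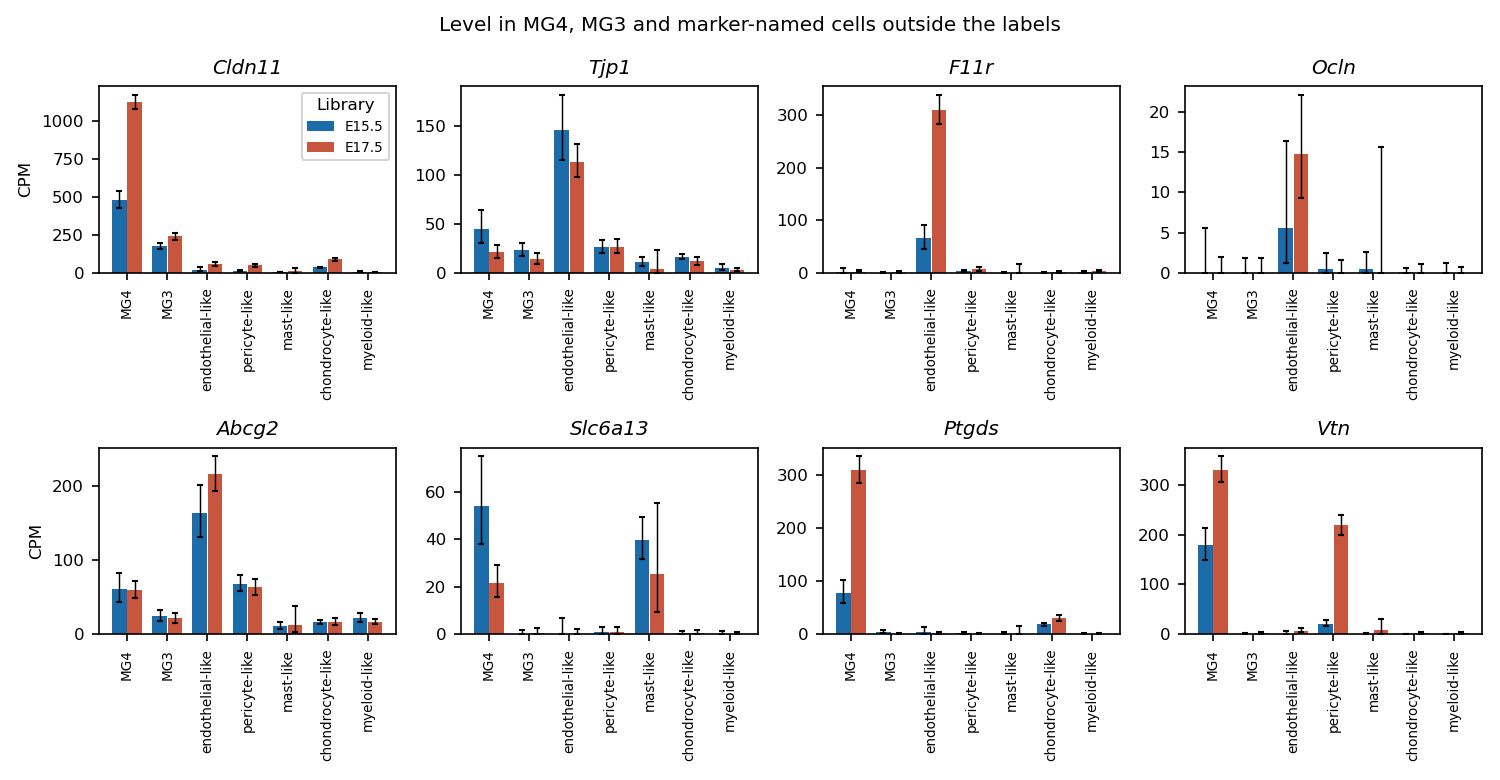
CPM (y axis, from 0, a scale of its own in each panel) of 8 of the genes in MG4, MG3 and 5 groups of unlabelled cells named from fixed markers (x axis), at E15.5 (blue) and E17.5 (red), with exact 95% Poisson intervals as bars. *Tjp1*, *F11r*, *Ocln* and *Abcg2* are highest in endothelial-like cells, and *Cldn11*, *Ptgds* and *Vtn* in MG4. *Slc6a13* is highest in MG4 at E15.5 and in mast-like cells at E17.5, with intervals of MG4 and mast-like cells that overlap at each stage.

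Other genes of the same families were read by the same limit, against the shares over all genes of 8.08% at E15.5, 12.8% at E17.5 and 3.84% in both. The lists, like the members, were chosen with earlier results of these data known. Of 22 other claudins, 6 passed the minimum of 20 UMIs in each library and 0 were called in MG4 in either, with a median ratio of 0.216 at E15.5 and 0.928 at E17.5, against 0.926 and 1.06 over all genes. *Cldn11* was therefore the only claudin called among those that passed. Of 22 other tight junction genes that passed, 4 were called in both libraries. *Lsr*, which encodes angulin-1 of tricellular contacts, had 51.2 and 29.5 CPM in MG4, 29.9 and 33.8 times the level of the other labelled cells. *Cxadr*, an adhesion receptor gene, had 88.8 and 25.3 CPM, 32.0-fold and 3.54-fold. *Ildr2* was 10.3-fold and 4.53-fold above. The medians of the list were 1.12 and 1.23.

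Of 14 other adherens junction and desmosome genes that passed, *Cdh5* and *Perp* were called in both libraries, and the medians were 1.15 and 0.774. *Cdh5*, the cadherin gene of endothelium, had 82.8 and 60.6 CPM in MG4, 12.7 and 14.4 times the level of the other labelled cells, while the other 5 endothelial markers together held few of the UMIs given above. *Perp*, a desmosome gene, was 6.87-fold and 22.8-fold above, with 21.1 and 82.7 CPM.

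Of 17 other SLC genes that passed, 11 were called at E15.5, 12 at E17.5 and 9 in both, with medians of 3.09 and 3.1. *Slc4a10* had 36.1 and 92.1 CPM, 31.5 and 35.1 times the level of the other labelled cells, and *Slc16a9* 90.3 and 145 CPM, 11.3-fold and 31.0-fold. *Slc23a2*, a vitamin C transporter gene, was 5.27-fold and 5.77-fold above. *Slc22a6* had 52.7 and 11.6 CPM, mostly from the cells described above, and passed the minimum only through MG4, so that its call followed from passing. Of 6 other ABC transporters that passed, 0 were called at E15.5 and 2 at E17.5. These were *Abcb1b*, with 15 UMIs in MG4 and a ratio of 4.94, and *Abca1*, with 57.9 CPM and a ratio of 5.65. *Abcb1a*, which encodes a P-glycoprotein and did not pass the minimum at E15.5, where MG4 held 0 UMIs, had 33 UMIs in MG4 at E17.5 and 17.4 CPM, with a ratio of 131.

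Of 13 other prostaglandin genes that passed, the receptor genes *Ptger1*, *Ptger2* and *Ptger3* were called in both libraries, on 2 to 46 UMIs, and the medians were 0.793 and 0.754. Of these *Ptger3* had the most, 14 and 46 UMIs, with ratios of 3.02 and 8.68. *Ptgdr*, a receptor gene for prostaglandin D2 that did not pass the minimum, had 3 and 65 UMIs in MG4, with ratios of 27.1 and 100. Of 8 vitronectin receptors and partners that passed, 0 were called at E15.5 and 1 at E17.5, *Itgb8*, from 5 UMIs. Their medians were 0.618 and 0.767. Of 2 pia markers that passed, 0 were called at E15.5 and *Ngfr* was called at E17.5. *Lama1*, a pia marker that did not pass, had 4 and 2 UMIs in MG4, with ratios of 28.9 and 3.41.

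Genes with a like pattern were sought by Pearson's r of log2(CPM + 1) over 30 values, the 15 clusters of both libraries, as a description. These points share libraries and depth. The genes closest to *Cldn11* were *Slc35g1* (r = 0.917), *Stra6* (0.904) and *Tmem86a* (0.898). Among the 3 genes closest to *Slc6a13* were *Vtn* (0.855) and *Ptgds* (0.766), and among those closest to *Ptgds* were *Vtn* (0.824) and *Dhps* (0.770). *Vtn* had *Slc6a13* and *Ptgds* among its closest genes, so that *Slc6a13* and *Vtn* and likewise *Ptgds* and *Vtn* were found among each other's. All 3 genes were highest in MG4, at E15.5 mostly through the same few cells described above, so this likeness largely restates those cells. Among the closest to *Abcg2* were *Psme2* (0.8) and *Spock3* (0.798), and the closest to *Tjp1* were *Fgfr1op2* (0.724), *Msra* (0.717) and *Slc25a32* (0.715). *Ocln*, *F11r*, *Cdh1* and *Slc47a1* had fewer than 50 UMIs in at least 1 library, and no likeness is given for them.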

How the data were processed

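The authors deposited count matrices of UMIs per gene and barcode from 10x Genomics Chromium 3′ libraries of coronal sutures, without normalization and before cell filters, and a table with the cluster and UMI count of each labelled cell. The methods name Cell Ranger with mm10 as the build, while the E15.5 matrix itself names a later version than the methods. The UMI count equalled the deposited count in 6830 of 6830 labelled cells at E17.5 and in 0 of 5335 at E15.5, where 5 of 5340 labelled cells are missing from the matrix. FastQC 0.11.7, MultiQC 0.9 and Seurat 3.2.0 are named in the submitters' processing notes. No column of the authors' own comparisons was used.

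UMIs were summed per deposited cluster and library with Python 3.11.15, numpy 2.4.6, scipy 1.17.1 and pandas 2.3.3, and figures were drawn with matplotlib 3.10.9. Unlabelled barcodes were kept with at least 1000 UMIs, 1000 genes, at most 7.5% mitochondrial and 3% Hbb or Hba UMIs, which left 2875 and 1937 cells. They were clustered with scanpy 1.11.5 and leidenalg 0.10.2 (2000 variable genes, 30 principal components, 30 neighbours, resolution 1). A name needed at least 3 fixed markers at least 2-fold above the other clusters. Doublets were scored with Scrublet in each suffix (expected rate 0.06), whose own limit called 415 cells of E15.5 and, by suffix, 9, 28 and 4 cells of E17.5, and no cell was removed for it except in an alternative. A gene was called in MG4 at 2-fold the CPM of the other labelled cells. Ratios to a count of 0 used 3 counts. Thinning drew 3000 UMIs per cell, which 62 of 64 MG4 cells and 5113 of 5271 other labelled cells had at E15.5 and every labelled cell at E17.5. Intervals, ratios and thinning were tested on simulated data.

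The genes named are the 10 members, the 3 genes most like each among genes with at least 50 UMIs in each library, and at most 4 genes called in both libraries per list. A few genes that this rule names are not reported here. *Dpp4*, *Lama1*, *Slc13a4*, *Abcb1a*, *Ptgdr* and the genes of counts under 5 were added after their values were seen. The members and lists were chosen with earlier results of these data known. Alternatives were cells within the limits only, thinned cells, a mean over cells of UMIs scaled to the same depth, mean UMIs per cell, genes above 1% of UMIs left out, cells of high Scrublet score left out, single suffixes, a limit of 1.5-fold, genes matched by identifier, other comparison cells and, added after seeing the data, MG4 without the cells that held *Ptgds* and *Slc6a13*. Lineage tracing, in situ and mutant experiments were not analysed here.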

Additional observations from a re-analysis of the deposited data

Results flagged for a closer look

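*Tjp1* stands apart because its ratio of MG4 to the other labelled cells lay on opposite sides of 1 in the libraries, 1.75 at E15.5 and 0.924 at E17.5. The difference between them was not tested, and the interval at E17.5 (0.658 to 1.26) includes 1.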

How the results depend on the processing

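Of 290 recomputed ratios of single genes, 216 stayed within their counting interval, 62 left it and 12 turned. Only ratios that had been at least 2-fold, up or down, were counted as turned. Those that left the interval thus include others that crossed 1. For *Tjp1* at E17.5 the ratio was 0.924 against all other labelled cells and 1.54 against MG3. With 1 matrix per stage, no paired analysis was possible because E15.5 has no second library, and apart from the spread between the E17.5 suffixes only counting error is known. In suffix 1 alone (7 MG4 cells), 4 members were at least 2-fold higher and 1 lower at E17.5, and the stage ratios of *Tjp1* (1.43), *Slc6a13* (9.05) and *Slc47a1* (1.72) and the *Abcg2* ratio at E17.5 (0.620) turned. In suffix 2 alone 1 member was higher, and the *Ptgds* stage ratio was 0.0137. In suffix 3 alone 5 members were called in MG4, 4 in both libraries and 1 was higher, the *Ptgds* stage ratio was at most 0.0431, since *Ptgds* had 0 UMIs, and *Slc47a1* was at 0.890 of the other cells. With thinned cells 1 member, *Vtn*, was higher at E17.5 and the *Ptgds* share ratio was 0.409. The number of lower members was 2 with a mean over cells, without cells of high Scrublet score, and without the cells with *Ptgds* and *Slc6a13*. Against all other kept cells *F11r* at E17.5 was 0.406. Against MG3, *Cdh1* at E17.5 was 0.537 and *Slc47a1* was 0.643 and 0.0632. The median of members per MG4 cell was 2 without thinning in both libraries. The remaining settings left the counts of called members within 1.5 times those given. The cause was not tested, except that the MG4 cells with both *Ptgds* and *Slc6a13* at E17.5 are all of suffix 1. The levels of *Ocln* and *F11r* in MG4 cannot be told from those of the next cluster at this depth.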
